A study of Mus musculus with 12 samples.

Results

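The p53 family and its partners in oocyte death were followed in mouse oocytes that lacked Lsm14b. The set holds 10 genes, chosen by symbol: the family members Trp53, Trp63 and Trp73, the kinase gene Chek2, the p53 ligase gene Mdm2, the target genes Cdkn1a and Ccng1, and the death genes Bbc3, Pmaip1 and Apaf1. The table for metaphase II (MII) eggs, of 22801 genes, held 9 of them. All 9 passed the filter on low values, with Pmaip1 passing through a single WT library, and expression of Bbc3 was not analysed here. The table for germinal vesicle (GV) oocytes held 3 of the 10 among its 3475 genes. It lists only genes with an unadjusted p under 0.05 and over 2-fold, so a gene missing there was merely not selected.

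The conditional knockout oocytes (CKO) carried both Gdf9-Cre and floxed Lsm14b alleles (Lsm14bfl/fl-Gdf9-Cre), and the controls (WT) carried the floxed alleles alone (Lsm14bfl/fl). Gdf9-Cre is a recombinase driven by an oocyte promoter. All females were C57BL/6 at postnatal day 35, and each library pooled 15 oocytes. Each genotype was sampled at GV, before meiotic maturation, and at MII, when the egg is mature. This gave 4 groups of 3 biological replicates.

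The p53 family consists of 3 related transcription factors that act on overlapping target genes. In most cells p53 is held low by the MDM2 ubiquitin ligase and responds to DNA damage with arrest or death. In mouse oocytes the guardian role falls mainly to TAp63, the full-length p63 isoform, which is kept inactive in resting oocytes and is switched on after damage by the checkpoint kinase CHK2 and casein kinase 1. Activated TAp63 induces the BH3-only genes Bbc3 (PUMA) and Pmaip1 (NOXA), which start the mitochondrial death pathway. TAp73 has been tied in the mouse to spindle fidelity in the oocyte. The values below are per gene and do not separate the TA and deltaN isoforms.

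Promoter windows were examined for the p53 decamer, the consensus unit that is repeated in a p53 response element and that p63 and p73 also bind. The windows are RefSeq sequences of GRCm38.p6 from 250 bases before to 50 after a gene's start, and 8 of the 10 genes had at least 1 window used here, 12 in all. A decamer was present in 4 of the 12, and in 8.36% of all 32851 windows. The decamer reads the same on both strands. The 4 windows that hold it are shown, with the decamers in capitals and the gene's start after base 250.
Trp53 (chr11:69580109-69580408, plus strand): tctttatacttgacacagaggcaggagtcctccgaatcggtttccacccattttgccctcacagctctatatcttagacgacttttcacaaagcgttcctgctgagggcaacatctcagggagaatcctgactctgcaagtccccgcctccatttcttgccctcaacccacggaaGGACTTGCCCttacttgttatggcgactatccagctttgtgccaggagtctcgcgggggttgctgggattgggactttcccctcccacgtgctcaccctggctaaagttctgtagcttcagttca
Ccng1 (chr11:40755237-40755536, minus strand): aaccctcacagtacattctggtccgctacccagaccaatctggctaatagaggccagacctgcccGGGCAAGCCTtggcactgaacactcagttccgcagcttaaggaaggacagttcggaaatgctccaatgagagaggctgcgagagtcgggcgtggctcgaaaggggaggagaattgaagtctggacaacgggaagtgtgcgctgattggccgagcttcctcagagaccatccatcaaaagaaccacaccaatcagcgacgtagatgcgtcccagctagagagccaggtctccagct
Mdm2 (chr10:117710709-117711008, minus strand): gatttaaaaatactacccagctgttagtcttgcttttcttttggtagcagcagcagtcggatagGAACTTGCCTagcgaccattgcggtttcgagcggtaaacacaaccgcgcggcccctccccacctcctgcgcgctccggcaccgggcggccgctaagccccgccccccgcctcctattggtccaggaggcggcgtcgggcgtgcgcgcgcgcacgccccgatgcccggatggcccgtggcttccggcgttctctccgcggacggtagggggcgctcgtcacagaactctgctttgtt
Cdkn1a (chr17:29090729-29091028, plus strand): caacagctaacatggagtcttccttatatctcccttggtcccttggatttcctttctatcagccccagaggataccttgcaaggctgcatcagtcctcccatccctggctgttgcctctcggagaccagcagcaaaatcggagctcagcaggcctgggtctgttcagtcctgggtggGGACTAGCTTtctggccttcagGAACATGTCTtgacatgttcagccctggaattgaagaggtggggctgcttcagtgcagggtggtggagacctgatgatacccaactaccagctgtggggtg

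The decamers begin at position -75 in Trp53, -185 in Ccng1, -186 in Mdm2 and -73 and -51 in Cdkn1a, counted from the start. The windows of Trp73, which has an upstream and an internal start, of Apaf1, Bbc3 and Chek2 held no decamer, and neither did the other Cdkn1a window. A match is a string of letters in this window and was not tested as a bound site. The CCAAT box, searched as CCAAT on both strands, was in 5 of the 12 windows and 37.4% of all, and GGGCGG on both strands was in 7 of the 12 and 35.7% of all.

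Lsm14b, the targeted gene, was at 1436 ± 164 normalized counts in CKO and 22931 ± 6257 in WT at GV, and at 908 ± 80.9 in CKO and 11051 ± 524 in WT at MII (SD, n = 3 each). The 3 CKO libraries at MII held 23077585 to 40530314 reads and the 3 WT libraries 88494525 to 124872889, so every CKO library was shallower. WT replicate 3 at MII stood apart, since its Spearman correlations across genes with the remaining 5 libraries were 0.847 to 0.877, and those among the 5 were 0.899 to 0.940. Log2 differences of the 9 genes at MII are given with and without it where it moved them. Oocyte markers were abundant, with a summed level of 890862 to 997656 normalized counts over 13 genes in CKO eggs and 748859 to 830073 in WT eggs, without overlap. Of the 13, Nobox alone was called, higher at MII by limma and higher at GV in the authors' deposited table. At MII Nobox was at 135349 ± 12001 normalized counts in CKO and 35534 ± 14615 in WT (SD, n = 3 each). Limma did not call it with no filter, scaling by total reads, a replicate block or any library but WT replicate 3 left out. Nlrp5, Zp2 and Zp3 also lay higher without overlap, and Bmp15 and Dazl lower. Over all genes tested, 10.4% lay higher and 12.0% lower without overlap. Of 16 cumulus and granulosa markers, 11 were tested at MII and none was called by limma, with summed levels of 3448 to 4375 in CKO and 2931 to 5212 in WT. These sums were mostly Nr5a2 and Cyp19a1. Amh, Has2 and Hsd17b1 were at 0 in every CKO egg library, and Cyp11a1 was at 0 in every WT egg library. Amh and Hsd17b1 were also at 0 in WT replicates 1 and 3. Fshr, Ptgs2, Inhba and Nr5a2 lay higher in CKO eggs without overlap, where 10.4% of all genes tested did. No marker of this list lay lower without overlap, where 12.0% of all genes tested did. Fshr had 157, 96.2 and 90.9 normalized counts in CKO replicates 2, 3 and 4. In WT replicates 1, 2 and 3 Fshr had 34.2, 4.79 and 0. In the same order Ptgs2 had 167, 20.3 and 31.7 against 7.66, 0 and 0. Of 13 theca, stroma and endothelium markers, 6 were tested at MII and none was called. At GV 4 were called lower in the authors' deposited table, where 7.89% of all genes were. Of 8 blood and immune markers, 2 were tested at MII, and C1qb was called lower by limma. Their summed levels of 194 to 215 in CKO and 1118 to 1925 in WT did not overlap, but in WT these were mostly C1qb. C1qb had 1904, 1493 and 1049 normalized counts in WT replicates 1, 2 and 3. Limma did not call C1qb with a replicate block or with any library but WT replicate 3 left out. Cd68, the other marker tested, overlapped at MII. It had 95.0, 20.3 and 60.6 in CKO replicates 2, 3 and 4, against 21.2, 7.18 and 66.1 in WT replicates 1, 2 and 3. At GV the authors' deposited table called C1qb lower and Cd68 higher. The part of these other markers in the results below was not tested.

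At GV, Trp53 was higher and Trp73 and Apaf1 were lower in oocytes lacking Lsm14b. Trp53 encodes p53. It had 8182, 8606 and 7326 normalized counts in CKO replicates 1, 2 and 4, against 2917, 3746 and 2929 in WT replicates 1, 2 and 4. Every CKO library was above every WT library. The mean was 8038 ± 652 in CKO and 3197 ± 475 in WT (SD, n = 3 each), and in the authors' deposited table Trp53 rose with a log2 fold change of 1.33 (SE 0.16, adjusted p = 7.91e-15). Because each library is a pool of oocytes, a shift in all oocytes and a larger shift in some of them cannot be told apart.

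Trp73 encodes p73, and changed in the opposite direction. Its values were 730, 490 and 861 normalized counts in CKO replicates 1, 2 and 4, against 3278, 3593 and 3193 in WT replicates 1, 2 and 4. The groups did not overlap, and the CKO mean of 694 ± 188 was 20.7% of the WT mean of 3355 ± 211 (SD, n = 3 each). The authors' deposited table gave a log2 fold change of -2.27 (SE 0.24, adjusted p = 7.28e-19). Apaf1 encodes the scaffold of the apoptosome, which activates caspase-9 once cytochrome c has left mitochondria. It had 325, 210 and 604 normalized counts in the CKO libraries and 1061, 832 and 934 in the WT libraries, again without overlap. The authors' deposited table gave a log2 fold change of -1.31 (SE 0.41, adjusted p = 0.00853) for Apaf1.

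**Figure D1:**
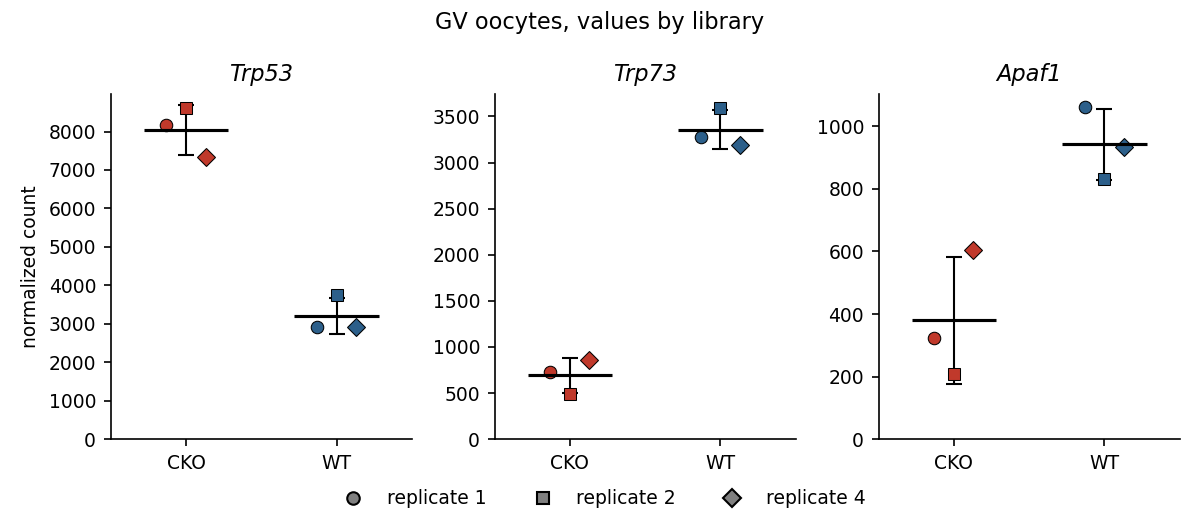
Normalized counts of Trp53, Trp73 and Apaf1 in GV oocytes, with CKO at the left and WT at the right of each panel. Points are libraries, with shape giving the replicate number, and lines and bars are the mean and SD (n = 3 each). The genotypes do not overlap in any panel, and Trp53 lies higher in CKO while Trp73 and Apaf1 lie lower.

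These 3 calls, 1 higher and 2 lower of the 10 genes, stand beside a background of 12.9% of 21462 genes called at GV in either direction, 4.96% higher and 7.89% lower. Genes in that table were selected by p, which favours genotypes that do not overlap, so the lack of overlap at GV adds nothing to the calls. Trp63, Chek2, Mdm2, Cdkn1a, Ccng1 and Pmaip1 were not selected at GV, and no GV value of theirs was analysed here.

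The values of Trp53, Trp73 and Cdkn1a carry counting uncertainties of their own. The processed pseudogene Trp53-ps is a near copy of Trp53 and had 102, 73.6 and 58.2 normalized counts in the CKO libraries and 21.8, 16.4 and 22.4 in the WT libraries at GV, with no overlap. At MII it had 24.7 ± 9.73 in CKO and 5.83 ± 3.71 in WT (SD, n = 3 each). These levels are small beside those of Trp53, and how reads were shared between the 2 genes is not given in the sources used here. In the GENCODE M21 annotation, 280 of the 5534 exonic bases of Trp73 overlap the antisense gene Trp73os, and 273 of the 3553 of Cdkn1a overlap AC167363.2 on the opposite strand. The strand setting of the counting is not given either.

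At MII, none of the 9 genes was called by limma at an adjusted p under 0.05, where 1.51% of 20388 genes were (0.52% higher and 0.991% lower). At an unadjusted p under 0.05 limma had 3 of the 9, Trp63 and Ccng1 higher and Trp73 lower, against 16.0% of all genes (6.7% higher and 9.28% lower). The authors' deposited table called the same 3 at an adjusted p under 0.05, of 8 genes with one, against a background of 11.5% of 16042 genes (4.6% higher and 6.94% lower). None of the 9 was called by limma-voom, run on recovered reads. The libraries of the genotypes did not overlap for 4 genes, these 3 and Trp53, where 22.4% of all genes tested had no overlap (10.4% higher and 12.0% lower). The median log2 difference over all genes was -0.11, on the authors' scaling of the libraries.

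Trp63, the gene of the oocyte's p63, had 10465, 9710 and 7508 normalized counts in CKO replicates 2, 3 and 4, against 4416, 3412 and 1432 in WT replicates 1, 2 and 3. Every CKO egg library was above every WT library. The mean was 9228 ± 1536 in CKO and 3087 ± 1519 in WT (SD, n = 3 each). By limma the log2 difference was 1.71 (SE 0.41, adjusted p = 0.0771), and without WT replicate 3 it was 1.23 (SE 0.21, adjusted p = 0.0595 by limma). The authors' deposited table had a log2 fold change of 1.58 (SE 0.47, adjusted p = 0.00999).

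Trp73 at MII was again lower in CKO, at 256, 284 and 213 normalized counts in CKO replicates 2, 3 and 4, against 1510, 907 and 450 in WT replicates 1, 2 and 3. The CKO libraries lay close together and the WT libraries were spread over a wide range, with replicate 3 the lowest. The mean was 251 ± 35.3 in CKO and 956 ± 532 in WT (SD, n = 3 each). The limma log2 difference was -1.77 (SE 0.52, adjusted p = 0.124). Without WT replicate 3 it was -2.23 (SE 0.30), and limma then called Trp73 with an adjusted p of 0.0404, where 4.37% of all genes were called. The authors' deposited table had a log2 fold change of -1.93 (SE 0.53, adjusted p = 0.00458).

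Trp53 at MII had 3041, 1917 and 2769 normalized counts in CKO replicates 2, 3 and 4, against 1213, 1672 and 1863 in WT replicates 1, 2 and 3. The lowest CKO library was only just above the highest WT library. The mean was 2576 ± 587 in CKO and 1582 ± 334 in WT (SD, n = 3 each). The limma log2 difference was 0.70 (SE 0.33, adjusted p = 0.338), or 0.83 without WT replicate 3 (adjusted p = 0.199 by limma), and the authors' deposited table had 0.70 (adjusted p = 0.181). The difference was not past the threshold at MII in either. Whether it was smaller than at GV was not tested, since the stages were scaled in separate tables.

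**Figure D2:**
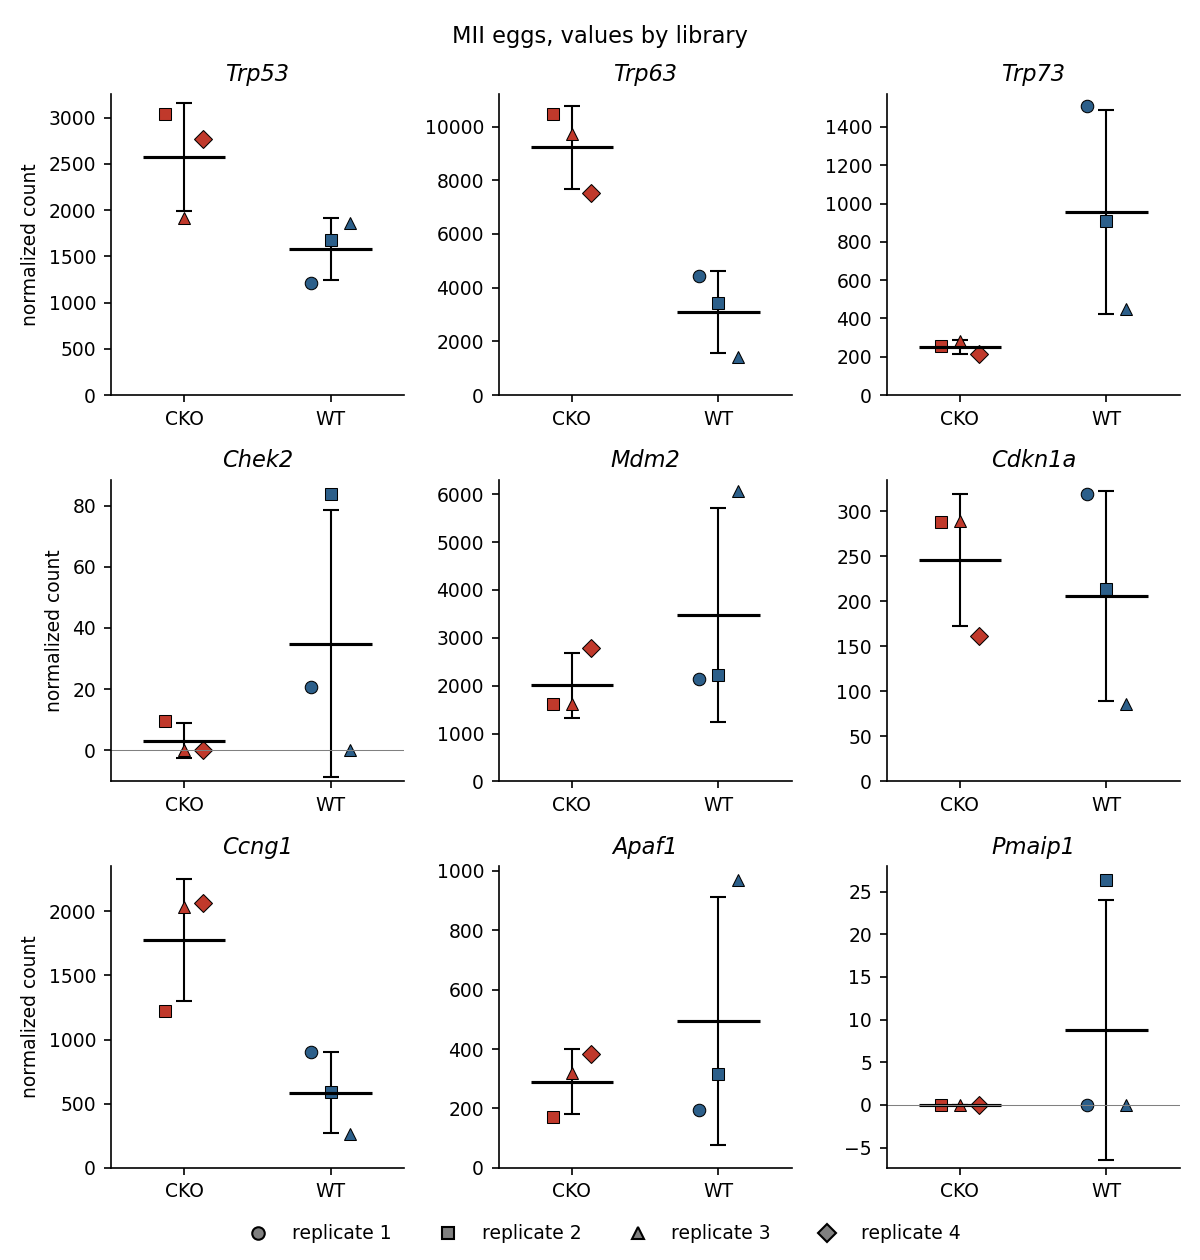
Normalized counts in MII eggs of the 9 genes measured there, with CKO at the left and WT at the right of each panel. Points are libraries, with shape giving the replicate number, and lines and bars are the mean and SD (n = 3 each). Trp53, Trp63, Trp73 and Ccng1 show no overlap between the genotypes, while WT replicate 3 is the highest library for Mdm2 and Apaf1 and the lowest WT library for Trp63, Trp73, Cdkn1a and Ccng1.

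Of the upstream regulators, Chek2 was close to the detection limit. It encodes the kinase CHK2, which phosphorylates p53 and p63 after DNA damage. Chek2 had 7 reads in CKO replicate 2 and 0 in CKO replicates 3 and 4, against 35, 140 and 0 reads in WT replicates 1, 2 and 3. A count of 0 allows up to 3 reads, or 7.60 and 4.13 normalized counts in CKO replicates 3 and 4. The values of the genotypes overlapped, and limma did not call Chek2 (adjusted p = 0.558, and 0.214 without WT replicate 3). With array weights, a setting chosen after seeing the data, limma called it lower (log2 difference -4.56, SE 1.36, adjusted p = 0.0424).

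Mdm2, itself a p53 target that closes the feedback loop, had 1619, 1615 and 2784 normalized counts in CKO replicates 2, 3 and 4, against 2146, 2214 and 6056 in WT replicates 1, 2 and 3. The ranges overlapped, and the WT mean of 3472 ± 2238 (SD, n = 3) rested largely on replicate 3, beside 2006 ± 673 (SD, n = 3) in CKO. The limma log2 difference was -0.66 (SE 0.45, adjusted p = 0.508) and -0.17 without WT replicate 3 (SE 0.30, adjusted p = 0.766 by limma).

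Neither of the arrest and feedback targets was called by limma. Cdkn1a encodes p21, the inhibitor of cyclin-dependent kinases. It had 288, 289 and 161 normalized counts in CKO replicates 2, 3 and 4, against 319, 214 and 86.1 in WT replicates 1, 2 and 3. The ranges overlapped almost fully. The limma log2 difference of 0.39 (SE 0.66, adjusted p = 0.757) became -0.14 (SE 0.41, adjusted p = 0.873) without WT replicate 3, so no direction is given.

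Ccng1 encodes cyclin G1, a p53 target that recruits phosphatase 2A to MDM2. It had 1224, 2033 and 2066 normalized counts in CKO replicates 2, 3 and 4, against 901, 591 and 268 in WT replicates 1, 2 and 3. Every CKO library was above every WT library. The mean was 1774 ± 477 in CKO and 586 ± 316 in WT (SD, n = 3 each). Its limma log2 difference was 1.72 (SE 0.49, adjusted p = 0.114), or 1.24 without WT replicate 3 (SE 0.34, adjusted p = 0.140 by limma), while the authors' deposited table had 1.60 (SE 0.52, adjusted p = 0.0255).

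The death effectors gave no call at MII. Apaf1 had 171, 319 and 382 normalized counts in CKO replicates 2, 3 and 4, against 193, 317 and 970 in WT replicates 1, 2 and 3. The genotypes overlapped, and only WT replicate 3 was far above the rest. In limma the log2 difference of Apaf1 was -0.50 (SE 0.66, adjusted p = 0.684), but 0.15 without WT replicate 3 (SE 0.48, adjusted p = 0.882). Apaf1 was therefore called lower at GV, while at MII it has no settled sign, and the difference between the stages was not tested. Pmaip1, which encodes the BH3-only protein NOXA, had 0 reads in every library except WT replicate 2, with 44. The 3 CKO libraries had limits of 4.13 to 7.60 normalized counts at 3 reads each, against 26.3 normalized counts in WT replicate 2. Pmaip1 had no adjusted p in the authors' deposited table, and no fold change is given here.

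**Figure D3:**
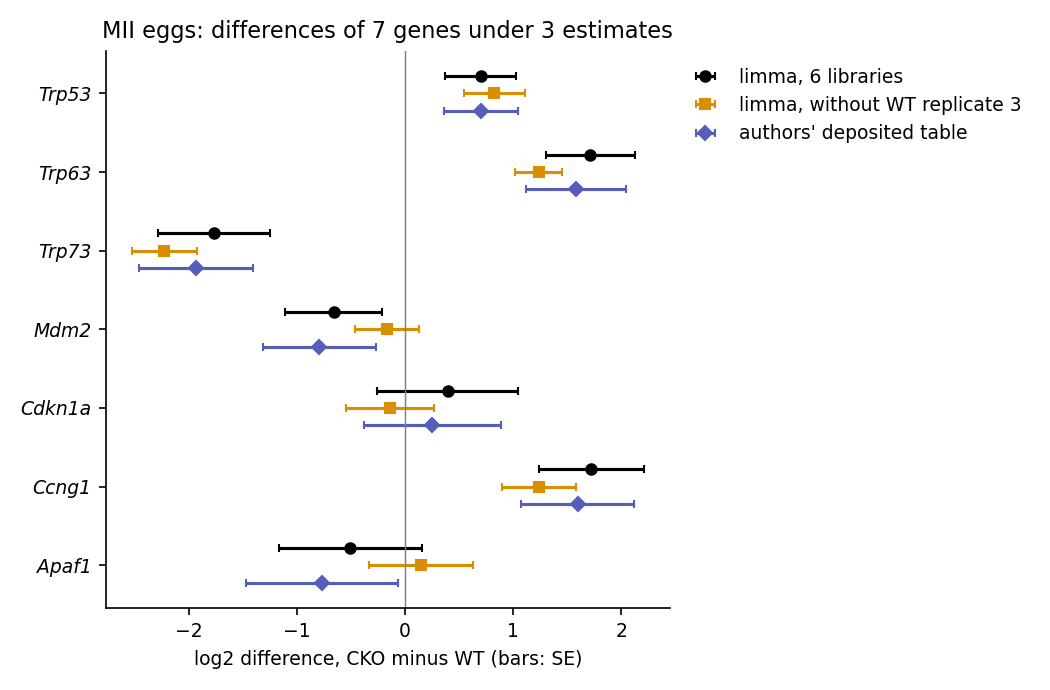
Log2 differences, CKO minus WT, of 7 genes in MII eggs by limma on 6 libraries, by limma without WT replicate 3 and in the authors' deposited table, with bars giving the SE. Chek2 and Pmaip1 are left out for their low counts. Trp63, Ccng1 and Trp53 lie above 0 and Trp73 below 0 in all 3 estimates, while Cdkn1a and Apaf1 change sign when WT replicate 3 is left out.

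Ratios between pairs of these genes within a library do not depend on how libraries are scaled. The pairs were chosen after the values were seen. The ratio of Trp63 to Trp73 normalized counts at MII was 40.9, 34.2 and 35.2 in CKO replicates 2, 3 and 4, against 2.92, 3.76 and 3.18 in WT replicates 1, 2 and 3. WT replicate 3, which stood apart in the genes singly, lay between the other WT libraries in this ratio. The log2 difference of the ratio was 3.49 (SE 0.13), between 3.40 and 3.59 with any library left out or with a pseudocount of 0.1. Since the pairs were chosen for their values, the ratios are given with no test.

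The ratio of Trp53 to Trp73 at GV was 11.2, 17.6 and 8.50 in CKO replicates 1, 2 and 4, against 0.890, 1.04 and 0.917 in WT replicates 1, 2 and 4. At MII it was 11.9, 6.76 and 13.0 in CKO replicates 2, 3 and 4, against 0.803, 1.84 and 4.14 in WT replicates 1, 2 and 3. The log2 difference at MII was 2.47 (SE 0.74), and 3.06 without WT replicate 3. The ratio of Mdm2 to Trp53 at MII was lower in CKO, at 0.532, 0.843 and 1.01 in CKO and 1.77, 1.32 and 3.25 in WT, with a log2 difference of -1.36 (SE 0.47), or -0.997 without WT replicate 3. None of the 4 ratios overlapped between the genotypes. For the ratios to Trp73 this was fixed in advance, since each gene of the pair already separated the genotypes in opposite directions. It adds nothing to the single genes.

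**Figure D4:**
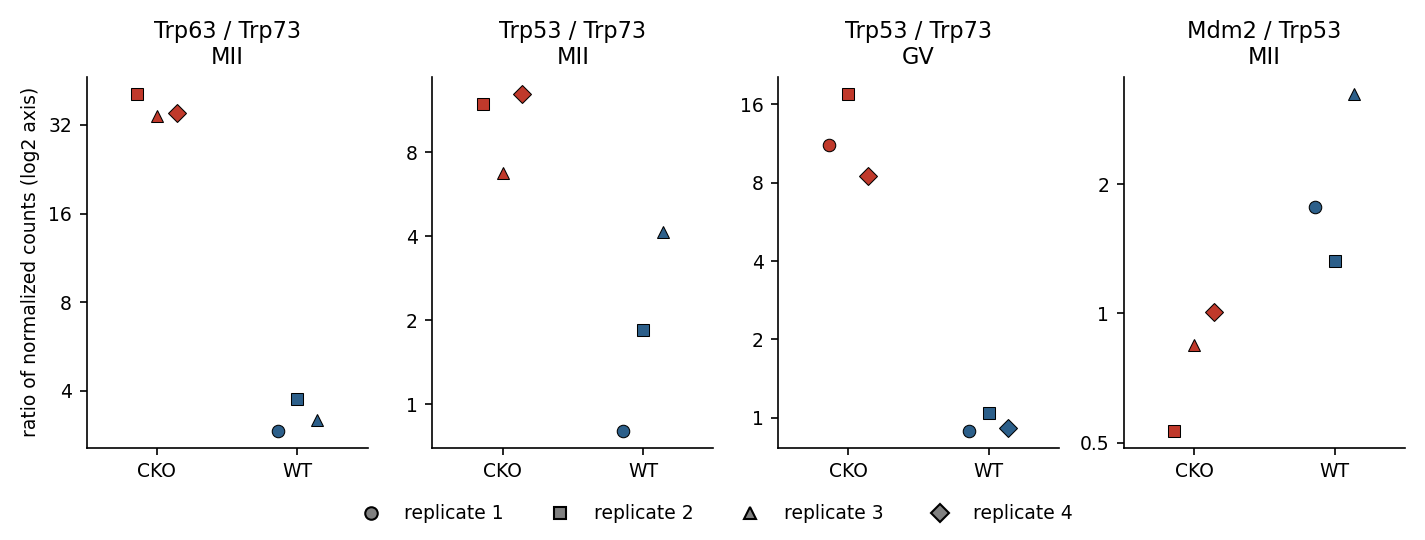
Ratios of normalized counts between 2 genes within each library, on a log2 axis, with CKO at the left and WT at the right of each panel. Points are libraries, with shape giving the replicate number. The Trp63 to Trp73 ratio is 34.2 to 40.9 in CKO eggs and 2.92 to 3.76 in WT eggs. The genotypes do not overlap in any panel, which for the ratios to Trp73 follows from the genes singly.

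Levels of the genes were set side by side only per kilobase of exon at MII, using the merged exons of GENCODE M21. In CKO eggs Trp63 was the most abundant of the 9, with a mean of 1099.7 normalized counts per kilobase and libraries from 895 to 1247. Trp53 came next at 637 (474 to 752), then Ccng1 at 505 (349 to 588) and Mdm2 at 395 (318 to 548). The Trp63 range lay above that of Trp53, whereas Trp53 and Ccng1 overlapped, as did Ccng1 and Mdm2. Cdkn1a at 69.2, Trp73 at 45.4 and Apaf1 at 32.2 followed well below Mdm2, each overlapping its neighbour, and Chek2 was at 1.07. In WT eggs the order of the means was Mdm2 at 683, Trp53 at 391, Trp63 at 368, Trp73 at 173, Ccng1 at 167, Cdkn1a at 58.0, Apaf1 at 54.7, Chek2 at 11.6 and Pmaip1 at 3.21. Each of the first 8 overlapped its neighbour in that order. The first place of Mdm2 rested on WT replicate 3. Over WT replicates 1 and 2 alone the means were 466 for Trp63, 429 for Mdm2 and 357 for Trp53, with Trp63 and Mdm2 overlapping, and Apaf1 was at 28.3.

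The wider pathway was followed in 5 lists with 119 genes, none of them among the 10 above. At MII limma tested 105 and called 2, 1 higher and 1 lower, against 1.51% of all genes. At GV 8 were called in the authors' deposited table, of which 3 were higher and 5 lower, against a background of 12.9% (4.96% higher and 7.89% lower). The median limma log2 difference over the 105 genes was -0.13, beside -0.11 over all genes tested.

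Among 24 regulators of p53, 23 were tested at MII, with a median log2 difference of -0.05, and 1 was called. This was Trp53bp2, which encodes ASPP2, a cofactor that directs p53 to death genes. Trp53bp2 had 52.3, 96.2 and 145 normalized counts in CKO replicates 2, 3 and 4 and 0 in every WT library, although these were the deeper ones. Against 3 reads in each WT library, its CKO mean was at least 57.5-fold higher, and limma gave an adjusted p of 0.0372. Limma also called Trp53bp2 without WT replicate 3, with scaling by total reads, with voom and with array weights. It did not call it with any other library left out, a pseudocount of 0.1, no filter or a replicate block. The authors' deposited table called 2 others higher at MII, Mdm4 and Ppp1r13b, and Ppm1d lower (4.6% higher and 6.94% lower over all genes). Mdm4 encodes the MDM2 partner that inhibits p53 (log2 fold change 0.96, adjusted p = 0.0121 in the authors' deposited table). Ppp1r13b encodes ASPP1, the relative of ASPP2 (log2 fold change 1.13, adjusted p = 0.00296 in the authors' deposited table). Ppm1d encodes WIP1, a phosphatase that turns off damage signalling (log2 fold change -2.18, adjusted p = 0.0494 in the authors' deposited table). No p53 regulator of the list was in the GV table.

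Of 30 other p53 target genes, 3 were called higher and 2 lower at GV (4.96% and 7.89% over all genes). The higher ones were Aen, which encodes an exonuclease that acts in apoptosis, Ei24, a gene of the endoplasmic reticulum, and Tnfrsf10b, the death receptor for TRAIL. Aen had 5400 ± 384 normalized counts in CKO and 2466 ± 196 in WT at GV (SD, n = 3 each; adjusted p = 5.08e-14 in the authors' deposited table). Ei24 had 1486 ± 327 in CKO and 738 ± 47.7 in WT (SD, n = 3 each), with an adjusted p of 3.83e-04 in the authors' deposited table. Tnfrsf10b was at 0 in all WT libraries and in CKO replicate 2, with 40.9 and 56.3 normalized counts in CKO replicates 1 and 4. Against 3 reads in each WT library, its CKO mean was 9.32-fold higher, but CKO replicate 2 was no higher than WT. The adjusted p of Tnfrsf10b was 0.0473 in the authors' deposited table. The 2 lower genes were the sestrins Sesn1 and Sesn2, stress-induced inhibitors of the mTORC1 kinase. Sesn1 had 110 ± 36.2 normalized counts in CKO and 345 ± 132 in WT, and Sesn2 had 385 ± 193 in CKO and 1271 ± 540 in WT (SD, n = 3 each).

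At MII none of the 24 target genes tested was called by limma, and the authors' deposited table called none. Limma had 2 lower and none higher at an unadjusted p under 0.05, where 9.28% of all genes were lower and 6.7% higher. The median log2 difference was -0.34, beside -0.11 for all genes. Sesn1 had 0, 45.6 and 0 normalized counts in CKO replicates 2, 3 and 4, against 90.2, 258 and 38.5 in WT replicates 1, 2 and 3 (limma adjusted p = 0.210). Ercc5, an endonuclease of nucleotide excision repair, was at 460 ± 53.2 in CKO and 1189 ± 849 in WT (SD, n = 3 each), with an adjusted p of 0.306 by limma. Without WT replicate 3 the WT mean of Ercc5 was 702, and the CKO mean was 0.655 of it in place of 0.387. Aen was at 1009 ± 243 in CKO and 604 ± 197 in WT at MII, without overlap and with an adjusted p of 0.393 by limma (SD, n = 3 each).

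The BCL2 family had 12 of 17 genes tested at MII, a median log2 difference of -0.77, beside -0.11 for all genes, and no limma call. Of the 12 genes, 5 lay above 0 and 7 below. The median rests partly on genes with few reads in the shallower CKO libraries. Bid had 0, 0 and 25 reads in CKO replicates 2, 3 and 4, and Bax 49, 0 and 14. The log2 difference of Bax was -1.03 by limma but 0.20 in the authors' deposited table. Bcl2l10, an anti-apoptotic gene that is strongly expressed in oocytes, had 13256, 13277 and 24007 normalized counts in CKO replicates 2, 3 and 4, against 38607, 48053 and 181975 in WT replicates 1, 2 and 3. All CKO libraries were below all WT libraries, and WT replicate 3 was far above the others. The limma log2 difference was -2.11 (SE 0.55, adjusted p = 0.0928), and the authors' deposited table had -2.41 (adjusted p = 0.00291). Without WT replicate 3 the limma log2 difference of Bcl2l10 was -1.41 (SE 0.34, adjusted p = 0.110). Mcl1, another anti-apoptotic member, had 984, 1572 and 1723 normalized counts in CKO replicates 2, 3 and 4, against 575, 560 and 729 in WT replicates 1, 2 and 3. Its limma log2 difference was 1.17 (SE 0.37, adjusted p = 0.156), and the authors' deposited table had 1.20 (adjusted p = 0.0117). At GV the list's only selected gene was Bcl2l2, which was not past an adjusted p of 0.05 in the authors' deposited table (adjusted p = 0.123).

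Of 23 genes of caspases and death execution, Fadd, the adaptor of death receptors, was called lower at GV, at 1335 ± 63.5 normalized counts in CKO and 2683 ± 68.0 in WT (SD, n = 3 each). Its adjusted p was 7.21e-11 in the authors' deposited table. At MII Fadd was at 332 ± 179 in CKO and 507 ± 182 in WT, with overlap (SD, n = 3 each; limma adjusted p = 0.605). None of the 21 genes tested at MII was called by limma. It had 3 higher and 1 lower at an unadjusted p under 0.05, where 6.7% of all genes were higher and 9.28% lower. Birc5, which encodes survivin, was at 5022 ± 1777 normalized counts in CKO and 1875 ± 1158 in WT (SD, n = 3 each; limma adjusted p = 0.120). Without WT replicate 3 the WT mean of Birc5 was 1207 and the limma log2 difference 2.001 (adjusted p = 0.0506), against 1.53 with it. Cycs, the gene of somatic cytochrome c that binds APAF1, was at 142 ± 80.4 in CKO and 588 ± 346 in WT (SD, n = 3 each; limma adjusted p = 0.166), or 389 in WT without replicate 3 (limma adjusted p = 0.291). The authors' deposited table called Cycs lower (log2 fold change -2.04, adjusted p = 0.0289).

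In the 25 genes of damage checkpoint and repair, Lig4 and H2ax were called lower at GV (7.89% over all genes). At MII limma called Lig4, and had 4 lower and none higher at an unadjusted p under 0.05. Over all genes tested, 9.28% were lower and 6.7% higher at that unadjusted p by limma. Lig4 encodes the ligase of non-homologous end joining. At GV Lig4 was at 1131 ± 173 normalized counts in CKO and 4100 ± 222 in WT (SD, n = 3 each), and it fell with an adjusted p of 7.41e-24 in the authors' deposited table. At MII it had 180, 243 and 459 in CKO replicates 2, 3 and 4, against 1103, 1280 and 3409 in WT replicates 1, 2 and 3, and it was the list's 1 limma call (log2 difference -2.63, SE 0.54, adjusted p = 0.0492). Beside this fit, limma called Lig4 only with array weights. It did not call Lig4 with any of the 6 libraries left out (log2 difference -2.12 and adjusted p = 0.0874 without WT replicate 3), nor with a pseudocount of 0.1, no filter, scaling by total reads, voom or a replicate block. H2ax encodes the histone variant that is phosphorylated around DNA breaks. At GV H2ax was at 3035 ± 613 in CKO and 11470.2 ± 1466 in WT (SD, n = 3 each), with an adjusted p of 3.09e-22 in the authors' deposited table. At MII it was at 187 ± 57.6 in CKO and 906 ± 505 in WT, without overlap (SD, n = 3 each; limma log2 difference -2.17, SE 0.55, adjusted p = 0.0863).

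**Figure D5:**
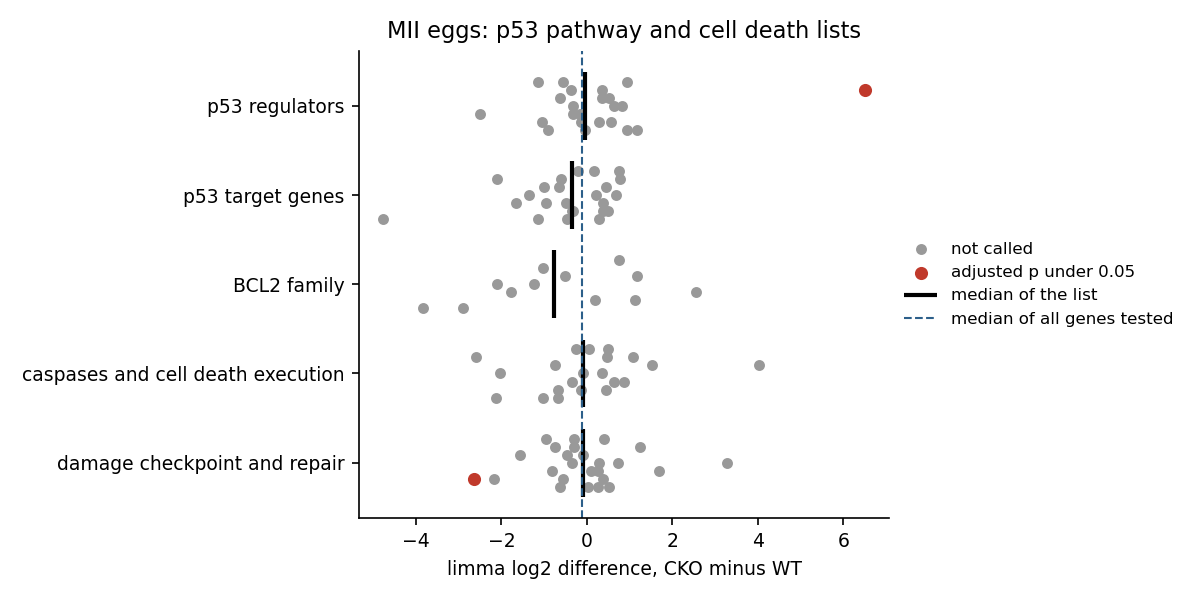
Limma log2 differences, CKO minus WT, at MII of the 105 tested genes of 5 p53 pathway and cell death lists. Each point is a gene, black bars are the list medians and the dashed line is the median of all 20388 genes tested (-0.11). The 2 called genes are Trp53bp2, far to the right among p53 regulators, and Lig4 to the left among damage checkpoint and repair genes.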

How the data were processed

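RNA was measured in 12 libraries, each from a pool of 15 oocytes in lysis buffer, prepared by standard Illumina methods per the labels' protocols. No aligner, counter, strand setting, genome build or annotation is named in the labels or file headers. The authors' library values are log10(normalized count + 1), and were turned back into normalized counts. The deposited tables also held the authors' own comparison: a mean signal over 6 libraries, a log2 fold change with its SE, a score of the test, and raw and adjusted p-values. The mean equalled that of the library values to a relative difference of 1.43e-14. All values were whole multiples of a unit per library (100% within 0.05), from which whole reads were recovered.

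Because the MII values are normalized, log2(normalized count + 1) was modelled by genotype in limma 3.58.1 (R 4.3.3), with a trend of variance on the mean. Genes with a mean under 1 were dropped, and the Benjamini-Hochberg adjustment ran over the 20388 left. The procedure was tested on simulated data with the same dispersion for all genes and no library that stood apart, unlike these data. That outcome is not used here. Fold changes of low genes on this scale are uncertain in either direction. Sesn1 had a log2 difference of -4.76 by limma and -3.11 in the authors' deposited table. Trp53bp2 had 6.51 by limma and 9.88 in the authors' deposited table. At GV, where genes had been selected, no model was fitted, and the number of genes tested there was taken from the ratio of adjusted to unadjusted p of the first gene. P-values measure the spread between these libraries, floors of 3 reads cover counting error only, and reads of near-identical genes are uncertain.

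The 10 genes and the lists were chosen with earlier results of these data known. Named genes were Lsm14b, all 10 members, and in each list and stage the called genes up to 6 by smallest p, or the 2 with the smallest p where none was called. Genes of a list that the authors' deposited table alone called at MII, Aen and Fadd at MII, the pseudogene and the ratios were named after their values were seen. Alternatives were a pseudocount of 0.1, no filter, scaling by total reads, limma-voom, the authors' deposited values, a replicate block, leaving out each library and, chosen after seeing the data, array weights. Promoters were those of RefSeq in GRCm38.p6.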

Additional observations from a re-analysis of the deposited data

How the results depend on the processing

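At MII limma called 308 genes, and 222 with a pseudocount of 0.1, 247 with no filter and 254 with scaling by total reads. It called 171 by limma-voom on recovered reads, 3190 with array weights, 0 with a replicate block (1496 at an unadjusted p under 0.05) and 0 to 890 with a library left out, where 890 is without WT replicate 3 and 0 without any other. The authors' deposited adjusted p called 1851. Of the 9 p53 family and death genes at MII, limma called 0, and 0 to 1 with a library left out (Trp73, without WT replicate 3). With array weights, chosen after seeing the data, it called 4 (Trp63, Trp73, Ccng1 and Chek2, where 15.6% of all genes were called), and the authors' deposited adjusted p called 3. Of the pathway list genes at MII, limma called 2, and 0 with a pseudocount of 0.1, 0 with no filter, 0 with a replicate block, 1 with scaling by total reads, 1 by limma-voom, 19 with array weights and 0 to 4 with a library left out, the 4 being Abl1, Kat5, Trp53bp2 and Xpc without WT replicate 3. The authors' deposited adjusted p called 9. The cause of these differences was not tested. The fits that leave a library out also hold fewer libraries. In the replicate block, WT replicate 1 and CKO replicate 4 have no library of the same number in the other genotype. The genotype difference of that fit therefore rests on replicates 2 and 3 alone.

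With a library left out, the log2 difference at MII ranged from -0.14 to 0.80 for Cdkn1a and from -1.01 to 0.15 for Apaf1, and the sign turned without WT replicate 3 (-0.14 for Cdkn1a and 0.15 for Apaf1). Of the other alternatives for single genes at MII, 106 kept their direction and side of the threshold and 8 kept the direction and passed it. At GV, 21 alternatives for Trp53, Trp73 and Apaf1 moved the log2 difference by less than 1 SD. Leaving out 1 of 3 libraries cannot move it by 1 SD, and the pseudocount matters little at these counts. That outcome was therefore fixed in advance. With a library left out, the log2 difference at GV ranged from 1.28 to 1.46 for Trp53. It ranged from -2.48 to -2.08 for Trp73 and from -1.84 to -1.08 for Apaf1. The replicate block there equals the difference of means by construction and tests nothing. A threshold of 0.01 left 3 of 3 members and 7 of 8 list genes called. At MII the replicate numbers 2 and 3 are shared, and the deviations of same-numbered libraries correlated at 0.01 and -0.10, so the numbers were not taken as pairs. The shallower CKO libraries limit Chek2 and Pmaip1, for which 1 read in CKO replicate 3 is worth 2.53 normalized counts.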

Other observations

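The genes most like the p53 family in pattern were sought over the 6 MII libraries among the 10568 genes averaging 100 normalized counts or more, by Pearson's r of log2(normalized count + 1). The 6 points share genotype and depth, and the r values are a description with no test. Nearest to Trp53 were Fbh1 (r = 0.987), a DNA helicase gene, Nob1 (r = 0.986), a gene of ribosome maturation, and Sdhd (r = 0.980), a subunit gene of succinate dehydrogenase. Nearest to Trp63 were Gm13456 (r = 0.999), Celf3 (r = 0.998), an RNA-binding protein gene, and Mid1 (r = 0.997), a ubiquitin ligase gene. Mid1 had 81663, 67178 and 41097 normalized counts in CKO replicates 2, 3 and 4, against 17344, 13077 and 3801 in WT replicates 1, 2 and 3 (limma log2 difference 2.68, SE 0.53, adjusted p = 0.0432). Limma called Mid1 in no other fit but that with array weights, and without WT replicate 3 its log2 difference was 2.01 (adjusted p = 0.0631). Mid1 was picked for following Trp63, whose libraries already separate the genotypes. Nearest to Trp73 were Ezh1 (r = 0.993), a histone methyltransferase gene, Hmga1 (r = 0.993), a chromatin architecture gene, and Tcea3 (r = 0.992), a transcription elongation factor gene. With 6 libraries such values are common, and 135, 866 and 321 genes had an r over 0.9 with Trp53, Trp63 and Trp73.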
